A study of Mus musculus with 6 samples.

Results

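The 42 genes described here are those of the ATF4 amino acid stress response, chosen by name from the 24493 genes of the deposited table. They comprised 11 stress factors and regulators, 12 enzymes of amino acid and one-carbon synthesis, 9 amino acid transporters, 8 cytosolic tRNA synthetases, and the targets Stc2 and Vldlr. All 42 symbols were in the table. Expression was measured by mRNA sequencing in 3 libraries of Ifnar1-SA mouse cells and 3 libraries of wild-type (WT) mouse cells. Both genotypes were labelled as Treg cells, a CD4 T cell type that restrains immune responses, and had been differentiated in culture from naive CD4 T cells of the spleen. Type I interferons signal through a receptor that includes Ifnar1, and the published SA knock-in carries alanine in place of a serine needed for degradation of this receptor. No label gives the age or sex of the mice, nor says whether a genotype's libraries were separate animals or cultures. The p-values therefore reflect only how far these libraries differ, and that spread may be technical.

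ATF4 is a transcription factor whose protein is made when the translation initiation factor eIF2 is phosphorylated, which happens when amino acids run short, when unfolded protein gathers in the endoplasmic reticulum, or when other stresses act. It binds together with C/EBP-family partners and turns on genes that import amino acids, synthesise them and charge them onto tRNA. In activated T cells, which grow fast and need much serine, glycine and one-carbon units, ATF4 is known for supporting this supply.

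Levels are in TPM, a share of all transcripts that is corrected for gene length and keeps no sequencing depth. Differences are on the log2(TPM + 1) scale, Ifnar1-SA minus WT, and were tested with limma over the 12141 genes that averaged 1 TPM or more. Of the 42 members 41 were tested, and the cystine transporter gene Slc7a11 was too low. Ifnar1-SA 1 and WT 2 stood apart from the other libraries, holding the highest value of 33.9% and 37.0% of all genes tested. The 6 T cell markers found by name summed to 1914 to 2137 TPM in Ifnar1-SA and 1792 to 1953 TPM in WT, with 4 higher and 2 lower in mean log2 value, a median log2 difference of 0.11, and Cd3d and Cd3g higher without overlap. Of the 10 Treg markers the defining factor Foxp3 was low, at 0.746 to 1.82 TPM in Ifnar1-SA and 0.276 to 0.697 TPM in WT, without overlap. The other 9 were tested, 4 higher and 5 lower in mean log2 value with a median of −0.040. The inhibitory receptor Ctla4 was at 762 to 876 TPM in Ifnar1-SA and 482 to 698 TPM in WT, and the cytokine Il10 at 256 to 344 TPM in Ifnar1-SA and 135 to 222 TPM in WT. Both were higher without overlap (limma, unadjusted p = 0.0261 for Ctla4 and 0.0189 for Il10, adjusted p = 0.9997 for both). The receptor chain Il2ra was at 422 to 444 TPM in Ifnar1-SA and 359 to 428 TPM in WT. The 5 lower Treg markers were Ikzf4, Lrrc32, Ikzf2, Tnfrsf18 and Nrp1, with log2 differences from −0.32 to −0.04, and each overlapped between the genotypes. B cell markers found by name, 6 of 8 listed, summed to 5.59 to 10.5 TPM in Ifnar1-SA and 5.62 to 13.4 TPM in WT. The 10 macrophage and dendritic markers summed to 11.1 to 13.8 TPM in Ifnar1-SA and 9.67 to 16.96 TPM in WT, and the erythroid marker Hbb-bs was at 0 throughout. The sums of the 10 neutrophil and mast cell markers did not overlap, at 17.8, 18.5 and 22.9 TPM in Ifnar1-SA and 7.78, 12.1 and 10.8 TPM in WT. Most of each sum was the single gene Ly6g, at 14.2, 15.6 and 21.4 TPM in Ifnar1-SA and 6.46 to 6.56 TPM in WT. The only other one tested, S100a9, overlapped and was lower in mean log2 value in Ifnar1-SA. S100a8 was at 0 in all Ifnar1-SA libraries and in WT 1. The part of these markers in the results below was not tested. The 10 CD8 T and NK markers summed to 2429 to 4124 TPM in Ifnar1-SA and 1356 to 3857 TPM in WT, nearly all from the granule genes Gzmb and Nkg7. In bulk RNA, fewer cells of a kind and less RNA per cell cannot be told apart.

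The stress response genes lay lower in Ifnar1-SA cells with few exceptions, by amounts that were mostly smaller than the spread between libraries of one genotype. Of the 41 members tested 39 had a lower mean log2 value in Ifnar1-SA, against 62.9% of all genes tested. The median log2 difference of the members was −0.31, and that of all genes was −0.06. No member passed: over all genes limma with Benjamini-Hochberg adjustment gave each of the 41 an adjusted p of 0.9997, where 0.0577% of the genes tested passed at 0.05. At an unadjusted p under 0.05, 5 members were lower (12.2%) and 0 were higher, against 1.68% and 1.44% of all genes tested (3.12% in either direction). The list was chosen with earlier results of these data known, so these shares describe it and are no test of it. The 5 lower members were Ddit3, Trib3, Cth, Vldlr and Slc38a2. The libraries of the genotypes did not overlap for Vldlr and Slc38a2, both lower in Ifnar1-SA, and 0 members were higher without overlap. Of all genes tested 5.77% were without overlap, 3.8% lower and 1.97% higher in Ifnar1-SA.

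For 40 of the 41 members the difference between the genotype means was smaller than the larger of the ranges of libraries within a genotype, and Slc38a2 was the exception. The 95% interval of 18 of the 41 members reached −1, a halving, so a difference of that size lay within it. Among all genes tested this held for 1227 of 12141. The interval of 5 members lay wholly below 0, the same 5 that had an unadjusted p under 0.05. The 5 members lower at an unadjusted p under 0.05, against 1.68% of all genes, numbered 0 when WT 2 was left out, against 0.766%. The count was 1 without Ifnar1-SA 2, against 0.815% of all genes, and 0 without Ifnar1-SA 3, against 0.667%. With both WT 2 and Ifnar1-SA 1 left out it was 2, against 2.11%. The count of 2 lower without overlap became 5 of 41 when WT 1 was left out, where 14.6% of all genes tested were, and 18 of 41 when WT 3 was, against 7.89% of all genes. Leaving out Ifnar1-SA 1 gave 11, against 23.0% of all genes, and leaving out Ifnar1-SA 2 gave 4, against 6.45%. Leaving out WT 2 together with Ifnar1-SA 1 gave 12, against 24.5%. Fewer libraries overlap more rarely by construction. The members' median, relative to that of all genes, was −0.26 with all libraries, −0.17 without WT 1, −0.14 without Ifnar1-SA 3 and −0.30 without both WT 2 and Ifnar1-SA 1. TMM scaling moved the median of all genes by 0.12, and 33 members were then below 0, against 35.2% of all genes tested. Below the median of all genes lay 38 members with and without TMM scaling, 35 with array weights, 31 without WT 1 and 32 without Ifnar1-SA 3.

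**Figure D1:**
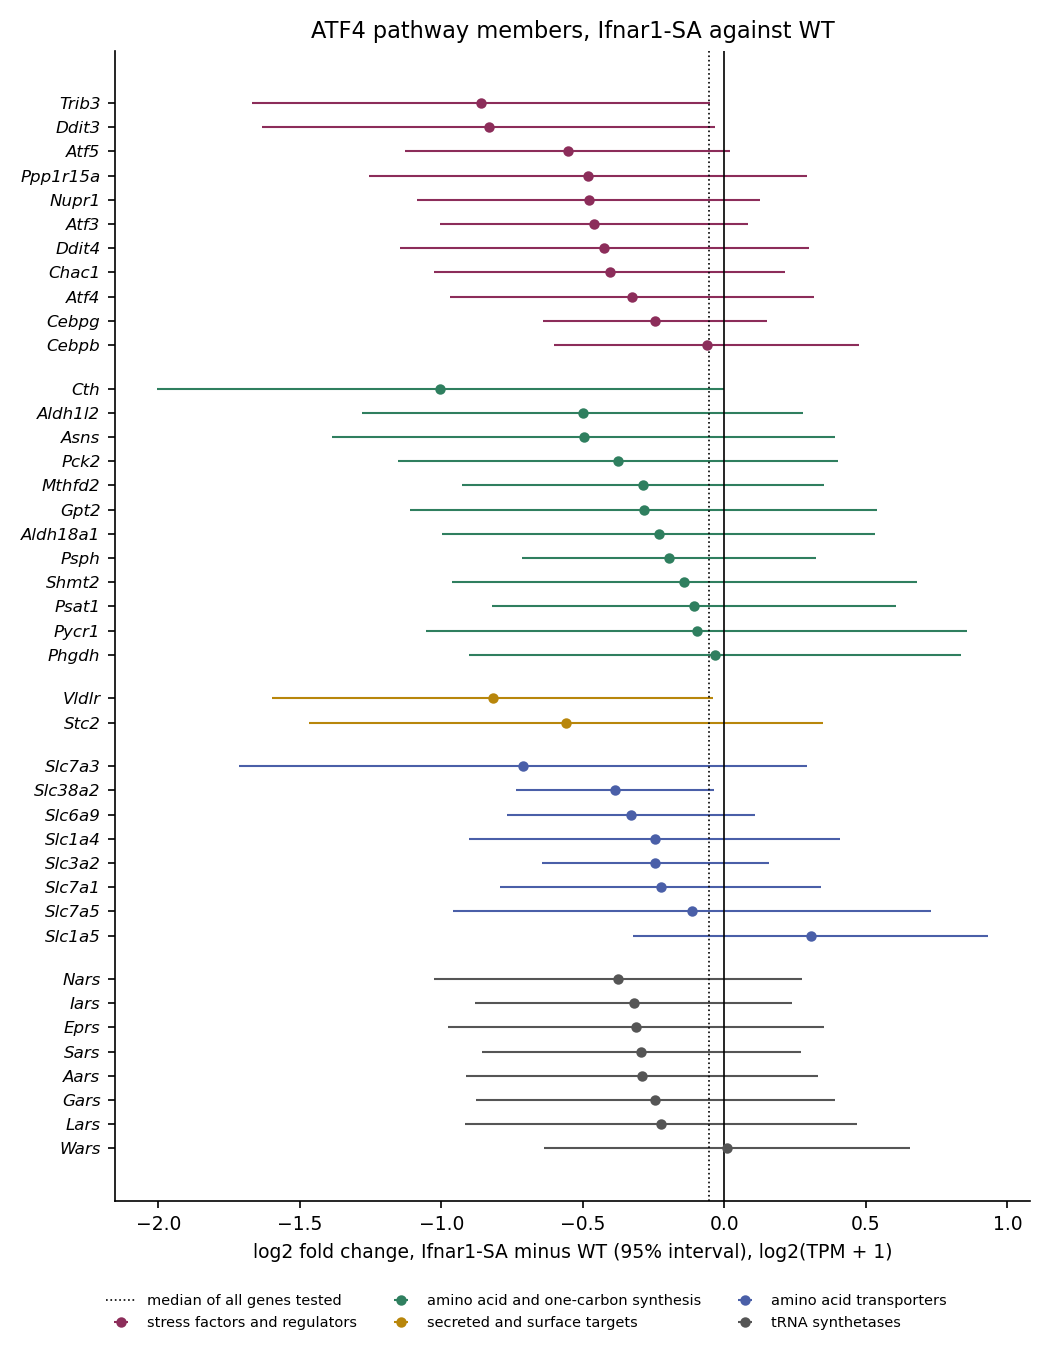
Log2 difference of each tested member between Ifnar1-SA and WT on the log2(TPM + 1) scale, with its 95% interval from limma, grouped by subgroup; the dotted line is the median of all genes tested (−0.06). Points lie left of 0 for 39 of 41 members, and the intervals of 5 lie wholly below 0.

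The promoters of many members carry the sequence ATF4 is known to bind, the C/EBP-ATF response element, whose core is TGATGNAA. RefSeq promoter sequences (build GRCm38.p6, 250 bases before to 50 bases from the annotated start) were matched for 34 of the 42 members. The core was present on either strand in 13 of the 34 (38.2%), against 4.51% of the 27025 genes in the promoter table. The members were chosen as known genes of the ATF4 response, so an excess of its element follows from that choice. The CCAAT box, a general promoter element, was in 20 of 34 members (58.8%) and 41.1% of all genes. By subgroup the core was found in 4 of 11 stress factors, 3 of 10 synthesis enzymes, 2 of 6 transporters, 3 of 5 tRNA synthetases, and Vldlr of the other 2 targets. The sequences below are those of 7 members discussed further on, on the strand of the gene and with the core in capitals, where TTNCATCA is the core read on the opposite strand. Stretches that touch an annotated exon are shortened to the site.
Atf3, chr1:191183406-191183473, minus strand: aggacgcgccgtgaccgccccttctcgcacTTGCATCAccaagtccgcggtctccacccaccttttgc
Chac1, chr2:119351019-119351086, plus strand: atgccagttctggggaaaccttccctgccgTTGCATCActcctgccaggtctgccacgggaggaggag
Nupr1, chr7:126625562-126625591, minus strand: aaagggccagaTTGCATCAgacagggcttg
Asns, chr6:7693214-7693243, minus strand: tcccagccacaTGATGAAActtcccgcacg
Pycr1, chr11:120643814-120643881, minus strand: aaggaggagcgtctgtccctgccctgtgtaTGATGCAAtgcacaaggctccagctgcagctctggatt
Vldlr, chr19:27216809-27216838, plus strand: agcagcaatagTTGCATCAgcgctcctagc
Slc7a11, chr3:50443623-50443709, minus strand: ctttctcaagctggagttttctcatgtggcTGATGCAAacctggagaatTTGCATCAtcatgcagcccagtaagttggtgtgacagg
The match began 23 bases before the start in Asns and 110 bases before it in both Atf3 and Nupr1, and Slc7a11 held 2 matches in opposite orientation. The median log2 difference was −0.39 for the 12 tested members with the core and −0.29 for the 21 without it. The ranges were alike, from −0.86 to −0.10 with the core and from −0.83 to −0.03 without it, and the difference was not tested. A match is a description of these letters and shows no binding in these cells.

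**Figure D2:**
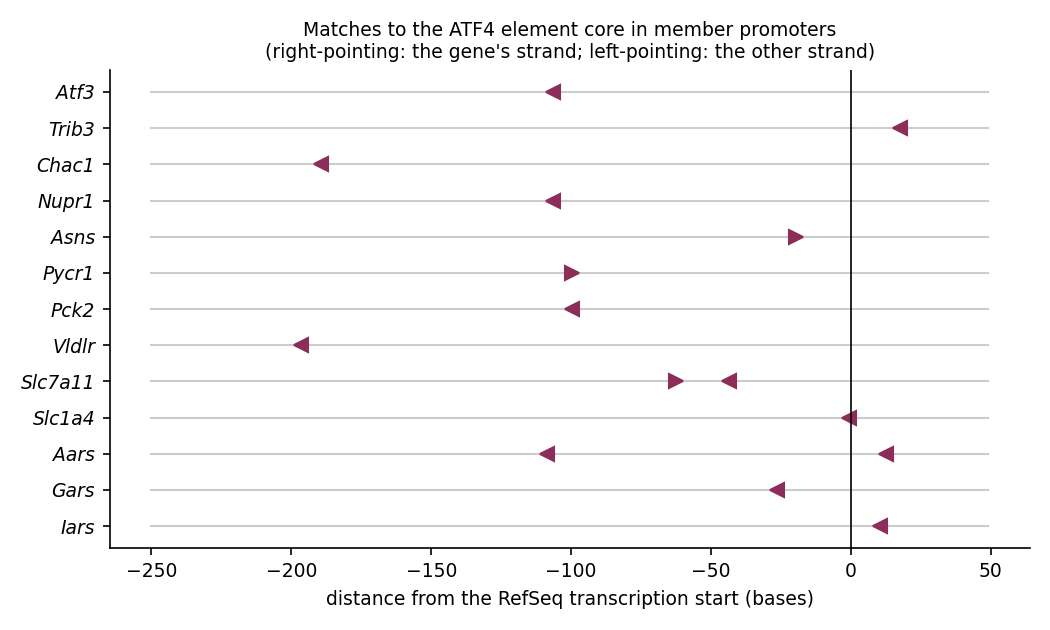
Positions of TGATGNAA matches in the promoters of the 13 members that hold one, as the distance in bases from the RefSeq start; right-pointing triangles are on the gene's strand and left-pointing ones on the other. The row for Vldlr is its second annotated start.

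Of the 4 large subgroups, the 11 stress factors and regulators had the largest difference between the genotype means. All 11 had a lower mean log2 value in Ifnar1-SA, with a median log2 difference of −0.46, and 2 of them, Ddit3 and Trib3, had an unadjusted p under 0.05. Their mean log2(TPM + 1) was 4.84, 4.78 and 4.47 in the Ifnar1-SA libraries, against 5.05, 5.38 and 5.06 in the WT libraries. The subgroup mean therefore did not overlap between the genotypes, which held for none of the other large subgroups. The subgroup median relative to all genes stayed between −0.33 and −0.45 when any 1 library was left out.

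Atf4 itself (GRCm38 chromosome 15, 80255184 to 80257541, plus strand) was at 231, 188 and 132 TPM in Ifnar1-SA and 252, 268 and 168 TPM in WT. The log2 difference of −0.33 had a standard error of 0.27, and the 95% interval ran from −0.97 to 0.32. Ifnar1-SA 1 and Ifnar1-SA 2 lay above WT 3, so the genotypes overlapped. ATF4 is controlled mainly through translation of its mRNA, so its transcript level is no measure of its protein.

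Ddit3, which encodes CHOP, a pro-apoptotic factor of prolonged stress, was at 245, 199 and 158 TPM in Ifnar1-SA, against 218, 525 and 382 TPM in WT. WT 2 and WT 3 were above every Ifnar1-SA library, and WT 1 fell among them. The mean was 0.534 times that of WT, with a log2 difference of −0.83 ± 0.34 (SE; unadjusted p = 0.0431, adjusted p = 0.9997, limma). Without WT 1 the log2 difference was −1.18 (adjusted p = 0.359, limma, and at least 0.299 over all alternatives), and without WT 2 it was −0.55. Ddit3 overlaps the methionyl-tRNA synthetase gene Mars on the other strand, which averaged 65.3 TPM. Use of strand in the counting is not stated, so reads of overlapping genes may be shared.

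Trib3, a pseudokinase that restrains ATF4 and CHOP, lies on the minus strand of chromosome 2 (152337422 to 152344032). Its level was 33.1, 22.5 and 14.8 TPM in Ifnar1-SA, against 39.6, 58.4 and 30.4 TPM in WT. Only Ifnar1-SA 1 and WT 3 crossed, and the mean was 0.548 times that of WT. The log2 difference was −0.86 ± 0.34 (SE; unadjusted p = 0.0399, adjusted p = 0.9997, limma). It ranged from −0.58 without Ifnar1-SA 3 to −1.14 without Ifnar1-SA 1.

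Atf3, a stress-induced factor of the same bZIP family, was at 101, 63.8 and 64.3 TPM in Ifnar1-SA and 96.5, 124 and 91.2 TPM in WT. Ifnar1-SA 1 was the library that overlapped with WT. Atf5, a related factor that activates mitochondrial stress genes, was low, at 1.43, 2.78 and 1.15 TPM in Ifnar1-SA and 2.99, 3.37 and 2.58 TPM in WT. Its log2 difference of −0.55 had an interval from −1.13 to 0.02. Atf5 overlaps Nup62 on the other strand, which averaged 38.9 TPM.

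Chac1, an enzyme that degrades glutathione (chromosome 2, 119351229 to 119354381, plus strand), was at 18.6, 16.2 and 10.5 TPM in Ifnar1-SA and 25.7, 19.2 and 15.7 TPM in WT. Ifnar1-SA 1 and Ifnar1-SA 2 lay above the lowest WT library. Nupr1, a stress-induced chromatin protein, averaged 87.9 ± 19.6 TPM in Ifnar1-SA and 124 ± 36.5 TPM in WT (SD, n = 3 each). Ppp1r15a, the phosphatase subunit GADD34 that reverses eIF2 phosphorylation, averaged 31.5 ± 8.77 TPM in Ifnar1-SA and 45.5 ± 16.4 TPM in WT. Ddit4, an inhibitor of the growth kinase mTORC1, averaged 15.8 ± 2.58 TPM in Ifnar1-SA and 22.6 ± 8.48 TPM in WT. For Ddit3, Ddit4 and Ppp1r15a the lowest WT library was WT 1 and the other 2 WT libraries lay above all of Ifnar1-SA. Of the C/EBP factors, Cebpg, a partner of ATF4, averaged 11.1 ± 1.62 TPM in Ifnar1-SA and 13.3 ± 1.73 TPM in WT, and Cebpb was low, at 1.42 ± 0.578 TPM in Ifnar1-SA and 1.47 ± 0.0928 TPM in WT, and overlaps Tmem189 on the other strand, at 40.3 TPM.

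**Figure D3:**
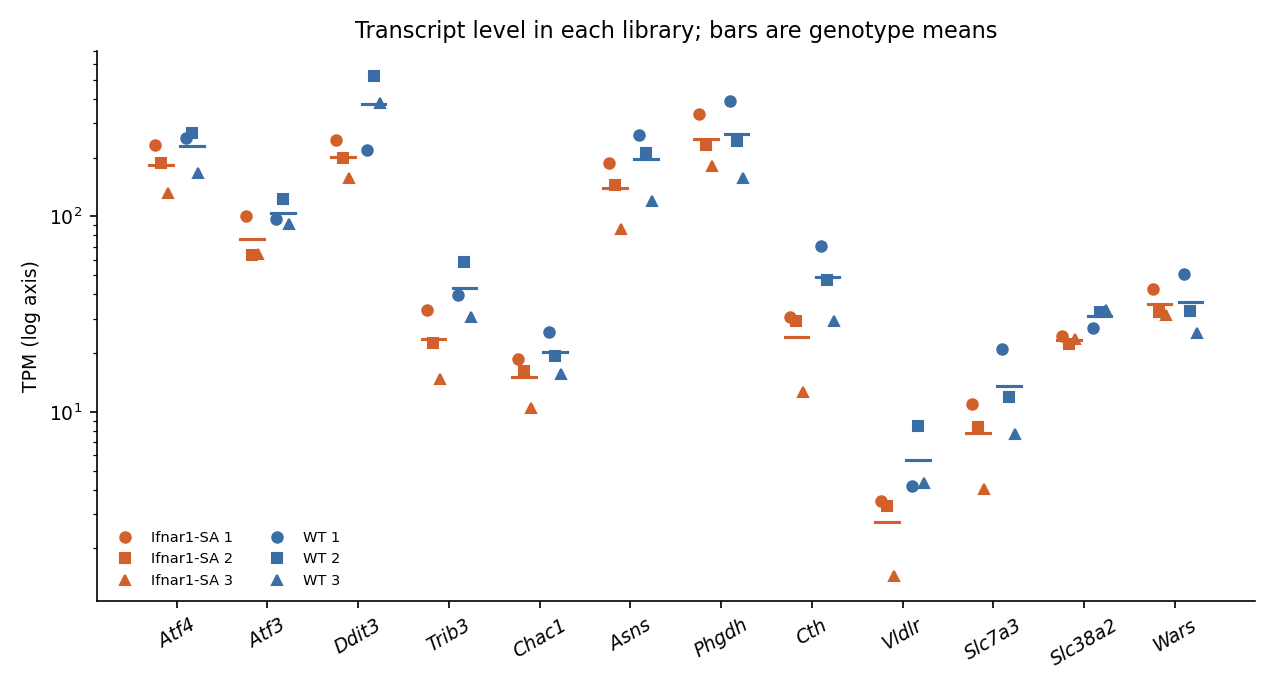
TPM of 12 members in each library on a log axis, Ifnar1-SA in orange and WT in blue, with bars at the genotype means and a marker shape for each library. Vldlr and Slc38a2 do not overlap between the genotypes, and Ifnar1-SA 3 is the lowest library for Atf4, Ddit3, Trib3, Chac1, Asns, Cth, Vldlr and Slc7a3.

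The 12 enzymes of amino acid and one-carbon synthesis varied more between libraries of a genotype than between genotypes, and ranged in level from Aldh1l2, near 1 TPM, to Phgdh, at over 100 TPM in every library. All 12 had a lower mean log2 value in Ifnar1-SA, with a median difference of −0.26, and 1 of them, Cth, had an unadjusted p under 0.05. Their mean log2(TPM + 1) was 5.83, 5.43 and 4.90 in Ifnar1-SA, against 6.09, 5.85 and 5.16 in WT. The difference of the genotype means was −0.31, while the libraries spanned 0.93 in Ifnar1-SA and 0.93 in WT. Relative to all genes the subgroup median was −0.20, and it was 0.0087 without WT 1 and −0.39 without WT 3. Leaving out Ifnar1-SA 3 gave −0.029, and leaving out Ifnar1-SA 1 gave −0.33.

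Cth, the enzyme that makes cysteine from cystathionine, lies on the minus strand of chromosome 3 (157894248 to 157925077). Its level was 30.6, 29.3 and 12.6 TPM in Ifnar1-SA, against 70.5, 47.4 and 29.3 TPM in WT. The lowest WT library lay between the Ifnar1-SA libraries, and the other WT libraries were above them. The mean was 0.492 times that of WT, with a log2 difference of −1.003 ± 0.42 (SE; unadjusted p = 0.0499, adjusted p = 0.9997, limma). This difference was −0.61 without Ifnar1-SA 3 and −1.32 without WT 3. Under each other scaling the unadjusted p was above 0.05 (limma, 0.0808 with median-of-ratios, 0.0973 with TMM and 0.0503 with quantile scaling). It was 0.0516 with no trend and 0.0729 with array weights (limma).

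Asns makes asparagine, is a standard ATF4 target and lies on the minus strand of chromosome 6 (7675169 to 7693254). Its level was 187, 145 and 86.3 TPM in Ifnar1-SA and 262, 211 and 120.1 TPM in WT. The log2 difference was −0.50, with an interval from −1.39 to 0.39, and the libraries overlapped. It was −0.19 without Ifnar1-SA 3, −0.26 without WT 1 and −0.82 without WT 3.

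The serine and glycine genes Phgdh, Psat1, Psph and Shmt2 had log2 differences between −0.19 and −0.032, each with a 95% interval that included 0. Phgdh, the first enzyme of serine synthesis and the most abundant of the 12, lies on the minus strand of chromosome 3 (98313170 to 98339990) and has a pseudogene copy, Phgdh-ps1. Its level was 333, 232 and 182 TPM in Ifnar1-SA and 392, 244 and 157 TPM in WT. The interval of its log2 difference ran from −0.90 to 0.84, and the sign turned under several settings. Next in the pathway, Psat1 averaged 148 ± 45.9 TPM in Ifnar1-SA and 160 ± 49.5 TPM in WT. The last step, Psph, averaged 133 ± 25.5 TPM in Ifnar1-SA and 153 ± 31.6 TPM in WT, and its gene overlaps Cct6a, at 174 TPM. In the mitochondrial one-carbon branch, Shmt2, which turns serine into glycine, averaged 120.2 ± 43.6 TPM in Ifnar1-SA and 133 ± 47.6 TPM in WT. The folate enzyme Mthfd2 averaged 112 ± 30.6 TPM in Ifnar1-SA and 137 ± 33.3 TPM in WT. Aldh1l2, which oxidises formyl-folate in mitochondria, was at 1.19, 1.05 and 0.386 TPM in Ifnar1-SA and 1.54, 2.85 and 0.802 TPM in WT, and overlaps D10Wsu102e on the other strand, at 7.15 TPM. Of these enzymes only Cth, Aldh1l2, Asns and Pck2 had a log2 difference below −0.30. Pck2, the mitochondrial enzyme that makes phosphoenolpyruvate, was at 37.9, 22.8 and 15.8 TPM in Ifnar1-SA and 33.5, 38.3 and 24.2 TPM in WT. For proline, Aldh18a1 and Pycr1 averaged 26.5 ± 9.47 and 14.6 ± 5.33 TPM in Ifnar1-SA, against 31.1 ± 9.38 and 16.2 ± 7.39 TPM in WT. The alanine aminotransferase Gpt2 averaged 7.70 ± 2.69 TPM in Ifnar1-SA and 9.71 ± 3.85 TPM in WT.

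**Figure D4:**
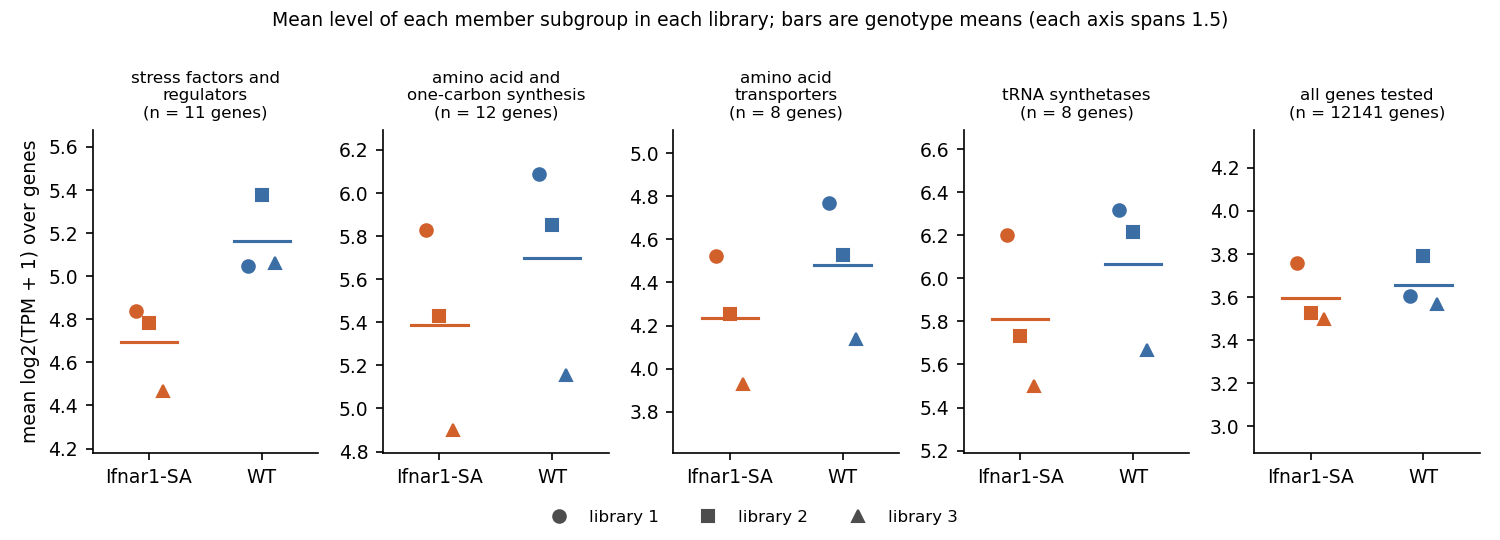
Mean log2(TPM + 1) over the tested genes of each subgroup, and over all genes tested, in each library, with bars at the genotype means; every axis spans the same distance. In the stress factor panel the 3 Ifnar1-SA libraries (4.47 to 4.84) lie below the 3 WT libraries (5.05 to 5.38), and in the other panels the genotypes overlap.

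Both targets outside these classes were lower in Ifnar1-SA in mean level. Vldlr, a lipoprotein receptor induced through ATF4 (chromosome 19, 27216484 to 27254231, plus strand), was at 3.48, 3.30 and 1.45 TPM in Ifnar1-SA, against 4.18, 8.42 and 4.30 TPM in WT. The 3 Ifnar1-SA libraries were all below the 3 WT libraries. The mean was 0.486 times that of WT, with a log2 difference of −0.82 ± 0.33 (SE; unadjusted p = 0.0416, adjusted p = 0.9997, limma). This difference was −0.54 without WT 2 and −0.54 without Ifnar1-SA 3. Stc2, a secreted glycoprotein of stressed cells, was at 68.1, 59.9 and 27.1 TPM in Ifnar1-SA and 66.0, 99.4 and 55.2 TPM in WT, which overlapped.

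The amino acid transporters ranged in log2 difference from −0.71 to 0.30. In mean log2 value 7 of the 8 tested were lower in Ifnar1-SA and 1 was higher. The median difference was −0.25, and Slc38a2 alone had an unadjusted p under 0.05. Relative to all genes the median was −0.19, and it was −0.11 without WT 1, −0.30 without WT 3 and −0.10 without Ifnar1-SA 3. Slc38a2 encodes SNAT2, a sodium-coupled carrier of small neutral amino acids (chromosome 15, 96687392 to 96699730, minus strand). It was at 24.3, 22.1 and 23.5 TPM in Ifnar1-SA, against 27.0, 32.5 and 33.2 TPM in WT. All 3 Ifnar1-SA libraries lay below all WT libraries, within a narrow band. The log2 difference was −0.39 ± 0.15 (SE; unadjusted p = 0.0343, adjusted p = 0.9997, limma), and it lay between −0.33 and −0.48 when any 1 library was left out. The unadjusted p was above 0.05 under each other scaling, where the log2 difference was −0.25 with TMM (unadjusted p = 0.196, limma), −0.28 with median-of-ratios (unadjusted p = 0.12, limma) and −0.35 with quantile scaling (unadjusted p = 0.0529, limma).

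Slc7a5 and Slc3a2 encode the chains of LAT1, the exchanger that brings leucine and other large neutral amino acids into activated T cells. The carrier Slc7a5 was at 42.5, 34.8 and 24.7 TPM in Ifnar1-SA and 57.3, 36.1 and 22.4 TPM in WT, with a log2 difference of −0.11 whose sign turned under several settings. The heavy chain Slc3a2, which also serves other carriers, was at 205, 196 and 161 TPM in Ifnar1-SA and 242, 231 and 193 TPM in WT. Its log2 difference of −0.24 had an interval from −0.65 to 0.16. Slc7a11, the cystine carrier that pairs with Slc3a2, was at 0.503, 0.431 and 0.299 TPM in Ifnar1-SA and 0.832, 0.608 and 0.425 TPM in WT. These levels were under the limit for the limma test, and the exact two-sided permutation p was 0.3, where 0.1 is the smallest that 3 against 3 libraries allow.

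Slc7a3, a carrier of arginine and lysine, was at 10.9, 8.38 and 4.01 TPM in Ifnar1-SA and 20.9, 11.9 and 7.74 TPM in WT, a log2 difference of −0.71 with an interval from −1.72 to 0.29. The related carrier Slc7a1 averaged 13.9 ± 3.61 TPM in Ifnar1-SA and 16.4 ± 3.69 TPM in WT. Slc6a9, a glycine carrier, was at 1.67, 1.41 and 1.13 TPM in Ifnar1-SA and 2.43, 1.99 and 1.65 TPM in WT, where the ranges met only at Ifnar1-SA 1 and WT 3. Slc1a4, a carrier of alanine, serine and cysteine, averaged 2.45 ± 0.859 TPM in Ifnar1-SA and 3.09 ± 1.04 TPM in WT. The glutamine carrier Slc1a5 was the transporter with the higher mean in Ifnar1-SA, at 138, 90.2 and 88.6 TPM against 112, 79.8 and 64.9 TPM in WT. Its log2 difference of 0.30 had an interval from −0.32 to 0.93.

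The 8 tRNA synthetases, which join amino acids to their tRNAs, lay within narrow limits. Their log2 differences lay between −0.38 and 0.01 with a median of −0.29, 7 were lower and 1 higher in mean log2 value, and 0 had an unadjusted p under 0.05. The mean log2(TPM + 1) was 6.20, 5.73 and 5.50 in Ifnar1-SA, against 6.32, 6.21 and 5.67 in WT. The subgroup median relative to all genes was −0.24, and it was −0.13 without WT 1, −0.13 without Ifnar1-SA 3 and −0.37 without WT 3.

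Nars, the asparaginyl-tRNA synthetase, was at 172, 131 and 104 TPM in Ifnar1-SA and 228, 179.5 and 127 TPM in WT. Iars, for isoleucine, was at 44.5, 34.8 and 27.6 TPM in Ifnar1-SA and 51.5, 48.1 and 34.2 TPM in WT. Sars, for serine, was at 126, 88.2 and 76.7 TPM in Ifnar1-SA and 114, 143 and 97.4 TPM in WT. The genotypes overlapped for each of these 3 genes. Eprs, the fused enzyme for glutamate and proline, was at 63.8, 43.4 and 35.4 TPM in Ifnar1-SA and 61.9, 72.1 and 42.6 TPM in WT. Gars, for glycine, averaged 134 ± 40.0 TPM in Ifnar1-SA and 158 ± 36.9 TPM in WT. Aars, for alanine, averaged 36.2 ± 11.3 TPM in Ifnar1-SA and 43.9 ± 9.55 TPM in WT, and Lars, for leucine, averaged 25.6 ± 6.42 TPM in Ifnar1-SA and 30.6 ± 10.04 TPM in WT. The Aars locus overlaps Exosc6 on the same strand, at 45.9 TPM. Wars, for tryptophan, is induced by interferon-gamma in many cells as well as by ATF4. It was at 42.7, 32.5 and 31.4 TPM in Ifnar1-SA and 51.0, 33.0 and 25.2 TPM in WT. The log2 difference of 0.0092, whose sign turned when single libraries were left out, lay in an interval from −0.64 to 0.66, the smallest difference among the 8.

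The members followed a small number of patterns across the libraries. Ifnar1-SA 3 held the lowest value for 30 of the 41 tested members (73.2%), against 26.7% of all genes tested, and WT 1 held the highest for 21 (51.2%), against 13.8% of all genes. Within the synthesis enzymes, WT 1 was highest for 9 of 12 and Ifnar1-SA 3 lowest for 10 of 12. The subgroup means of synthesis enzymes, transporters and tRNA synthetases fell with library number in both genotypes. At each number Ifnar1-SA was the lower. For transporters they were 4.52, 4.25 and 3.93 in Ifnar1-SA and 4.77, 4.53 and 4.14 in WT. The stress factors fell in this order in Ifnar1-SA but not in WT. Among stress factors the highest library was WT 2 for 8 of 11, with WT 1 highest for 2. Summed over all 42 members, transcripts reached 3328, 2550 and 2004 TPM in Ifnar1-SA and 3756, 3648 and 2571 TPM in WT. The sums of the stress factors were 774, 658 and 514 TPM in Ifnar1-SA and 854, 1197 and 893 TPM in WT, and those of the synthesis enzymes were 1329, 955 and 719 TPM in Ifnar1-SA and 1565, 1203 and 783 TPM in WT.

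Genes around the response were compared in the same fit. Of 15 genes for the eIF2 kinases, eIF2 and its exchange factor eIF2B, 0 had an unadjusted p under 0.05, and the median log2 difference was −0.08. Eif2s3x, the gamma subunit of eIF2, was at 26.8 to 33.02 TPM in Ifnar1-SA and 33.2 to 38.6 TPM in WT, and Eif2ak4, the GCN2 kinase that senses uncharged tRNA, was at 2.13 to 3.16 TPM in Ifnar1-SA and 2.51 to 3.68 TPM in WT. Of 20 further genes reported as ATF4 targets 15 were tested, with 12 lower, 3 higher and a median of −0.23, and 0 had an unadjusted p under 0.05. Eif4ebp1, the translation repressor 4E-BP1, was at 846, 877 and 655 TPM in Ifnar1-SA and 1024, 1148 and 909 TPM in WT, without overlap (unadjusted p = 0.0667, adjusted p = 0.9997, limma). Got1, an aspartate aminotransferase, was at 89.8 to 114 TPM in Ifnar1-SA and 109.5 to 134 TPM in WT.

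The tRNA synthetases and folate enzymes that are not members lay nearer to the other genes of the table. The 12 other cytosolic synthetases had a median log2 difference of −0.10, with Cars at 28.4 to 58.2 TPM in Ifnar1-SA and 44.4 to 67.8 TPM in WT and Yars at 37.4 to 63.3 TPM in Ifnar1-SA and 45.3 to 67.02 TPM in WT. The 17 mitochondrial synthetases had a median of −0.08, with Wars2 at 2.26 to 2.45 TPM in Ifnar1-SA and 2.51 to 3.68 TPM in WT, and Fars2 at 62.98 to 67.98 TPM in Ifnar1-SA and 52.8 to 62.7 TPM in WT, neither with overlap. Of 15 other folate and one-carbon enzymes 11 were tested, with 8 higher, 3 lower and a median of 0.02. Gcsh, of the glycine cleavage system, was at 31.4 to 45.95 TPM in Ifnar1-SA and 20.4 to 47.8 TPM in WT. None of these 40 tested genes had an unadjusted p under 0.05.

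Protein folding in the endoplasmic reticulum shares Ddit3 and Trib3 as targets, and its own genes had a median log2 difference of −0.03 over 18 tested, with 7 higher, 11 lower and 0 at an unadjusted p under 0.05. The folding regulator Xbp1 was at 170 to 227 TPM in Ifnar1-SA and 227 to 263 TPM in WT, and Sel1l, of the degradation machinery, at 12.02 to 18.3 TPM in Ifnar1-SA and 15.2 to 24.2 TPM in WT. For the 14 tested genes of mTORC1 and MYC, which also drive amino acid genes in T cells, the median was −0.14. Of these genes 12 were lower and 2 higher, where 62.9% of all genes tested were lower, and 0 had an unadjusted p under 0.05. The list holds both activators and inhibitors of mTORC1, so these figures give no direction for the pathway. Rragd, a Rag GTPase, was at 1.89 to 2.90 TPM in Ifnar1-SA and 2.35 to 6.04 TPM in WT, and Fnip1, a regulator of these GTPases, at 1.09 to 1.65 TPM in Ifnar1-SA and 1.47 to 2.24 TPM in WT. Differences between these lists and the members were not tested.

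**Figure D5:**
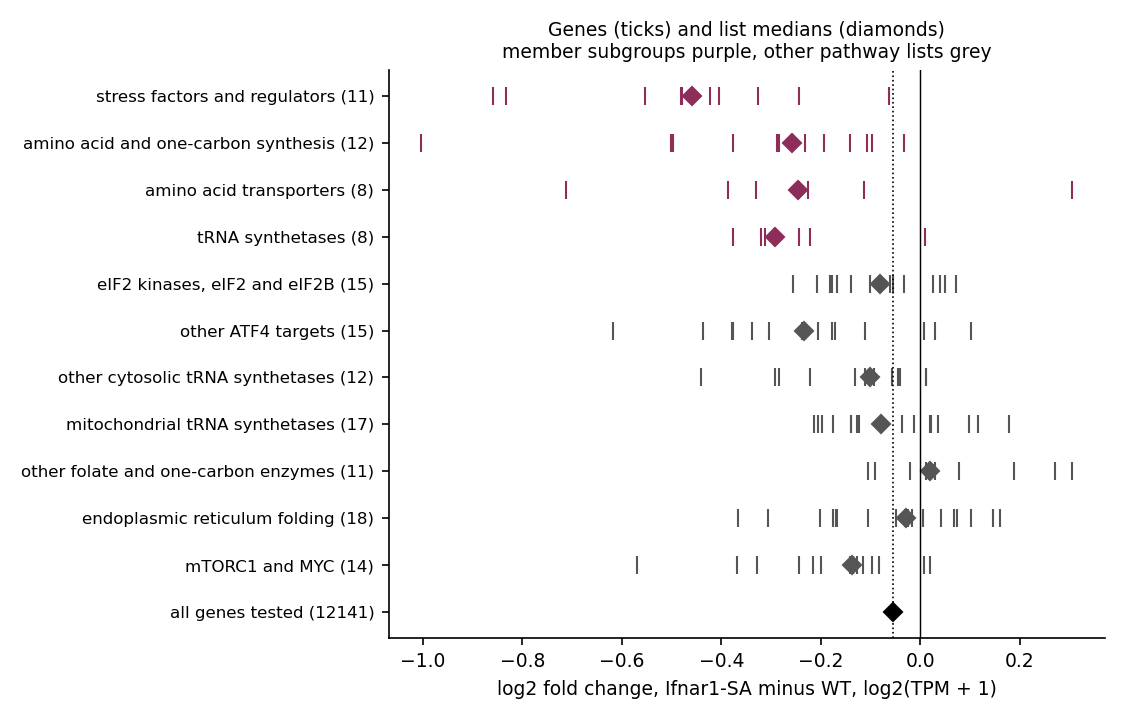
Log2 difference of each tested gene (ticks) and the median of each list (diamonds) for the 4 large member subgroups and 7 other pathway lists, with the number of genes tested in brackets; the dotted line is the median of all genes tested (−0.06). Of the lists drawn, the stress factors have the lowest median (−0.46) and the other folate enzymes the highest (0.02).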

How the data were processed

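Messenger RNA of 6 libraries, 3 per genotype, was measured, and the authors deposited gene-level TPM made with Salmon on mm10/GRCm38, per the submitters' processing notes. No version, annotation or read filter is stated there. TPM keeps no depth, so no counting interval could be given. Columns were matched to samples by title. log2(TPM + 1) of the 12141 genes averaging 1 TPM or more was tested with limma 3.58.1 in R 4.3.3 (intensity trend, two-sided, Benjamini-Hochberg adjustment over all of them, threshold 0.05), without a replicate block. Folds on this scale understate changes of low genes. The procedure was tested on simulated data with noise drawn independently for each gene. Shifts shared by many genes of a library were not simulated. Positions are from GENCODE M21, by symbol. Motifs were searched on both strands.

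Members and lists were chosen with earlier results of these data known. Values per library are given for Atf4, Ddit3, Trib3, Chac1, Asns, Phgdh, Slc7a5, Slc3a2 and Wars, for members under the filter or without overlap, and for the 4 members of smallest unadjusted p in each subgroup. Of each further list the 2 genes of smallest unadjusted p are named, except that 1 gene is not reported here. Library values of Slc1a5 and the marker genes singled out were chosen after values were seen. Of the 9 T cell markers 6, of the 8 B cell markers 6 and of the 15 mTORC1 and MYC genes 14 were found by name.

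Alternatives changed the pseudocount (0.1, 0.5), the filter (none, or 5 TPM on average) and the scaling (quantile, median-of-ratios, or TMM, the trimmed mean of log ratios). Others used no trend, array weights, a replicate block, each library left out, and WT 2 and Ifnar1-SA 1 left out together or given a model term.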

Additional observations from a re-analysis of the deposited data

How the results depend on the processing

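No member passed an adjusted p of 0.05 in any of the 18 alternatives. Of 410 log2 differences of the 23 named members under them, 397 kept their direction and their side of the threshold. The 13 that changed sign were of Phgdh (0.073 with median-of-ratios, 0.11 with TMM scaling, 0.047 with array weights, 0.30 without WT 1 and 0.17 without Ifnar1-SA 3, with a range of −0.36 to 0.30 when 1 library was left out), Slc7a5 (0.026 with TMM scaling, 0.012 with array weights, 0.21 without WT 1 and 0.092 without Ifnar1-SA 3, range −0.45 to 0.21) and Wars (−0.031 without WT 2, −0.22 without WT 3, −0.13 without Ifnar1-SA 1, range −0.22 to 0.28, and −0.17 without both WT 2 and Ifnar1-SA 1). The cause was not tested.

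Relative to all genes, the members' median ranged from −0.38 to −0.14 when 1 library was left out, and that of the synthesis enzymes from −0.39 to 0.0087. The 5 members lower at an unadjusted p under 0.05 became 3 under each of the 3 scalings, and Slc38a2 and Cth were lost in each. Quantile scaling also lost Ddit3 and gained Atf3. By the same measure 1.95% of all genes were lower with median-of-ratios, 1.51% with TMM and 1.97% with quantile scaling. The count was 2 without both WT 2 and Ifnar1-SA 1, against 2.11% of all genes. When 1 library was left out it was 0 to 5, against 0.667% to 4.47%. The 2 members lower without overlap became 1 at a mean of at least 5 TPM, against 3.61% of all genes in that fit. They became 6 with median-of-ratios (4.21% of all genes), 6 with quantile (4.65%) and 4 with TMM scaling (3.17%). The count was 12 without WT 2 and Ifnar1-SA 1, against 24.5% of all genes. It was 2 to 18 when 1 library was left out, against 4.62% to 23.0%, where fewer libraries overlap more rarely by construction. Members higher without overlap numbered 0 with all libraries and 1 without that pair, against 6.81% of all genes. They numbered 0 to 1 when 1 library was left out, against 2.62% to 8.43%. Over all genes the 7 calls became 15 and 14 at pseudocounts of 0.1 and 0.5, 1 at a mean of at least 5 TPM, 12 with array weights, 20 without the pair and 14 to 28 when 1 library was left out.

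With a replicate block the calls over all genes were 0 and 8 members were lower at an unadjusted p under 0.05, against 1.72% of all genes tested in that fit. Deviations of same-numbered libraries correlated at −0.11, −0.11 and 0.15 across genes, and Ifnar1-SA 1 correlated best with WT 2 (0.25), which does not show that numbers pair the libraries, and the labels do not say. Those correlations are over all genes tested, while the means of synthesis enzymes, transporters and tRNA synthetases fell with library number in both genotypes. The block lowered the standard error of Asns to 0.13, against 0.38 without it, and that of Cth to 0.17, against 0.42. That of Ddit3 was 0.36, against 0.34. Whether this order reflects a pairing of the libraries was not tested. Depth is unknown for TPM, and members near 1 TPM (Cebpb, Aldh1l2, Slc6a9, Slc7a11) may rest on few reads.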
